A study of Mus musculus with 9 samples.

Results

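The transcripts of 9 complement genes were read in PPTR cells and in clones of them that were edited at *Vcam1*. The genes were *C1ra*, *Masp1*, *C3*, *C4b*, *Cfb*, *Cfi*, *Serping1*, *Cd55* and *Cd59a*, chosen by their symbols from the 55276 symbols of the count table. All 9 were in the table, and all 9 passed the filter on low counts that left 17672 genes for testing. *Cd55* passed it through its ctrl libraries alone. *Cfi* passed it through its clone libraries, since its ctrl libraries alone would not have sufficed. PPTR cells are mouse intrahepatic cholangiocarcinoma (iCCA) cells from liver cancers of mice in which Prom1CreERT2, a Cre active in *Prom1*-expressing cells, deletes floxed genes and switches on the green reporter Rosa-ZsGreen. All 3 conditions share this origin. The *Vcam1* ctrl cells (labelled WT) were compared with *Vcam1* KO1 and *Vcam1* KO2 cells, each a single-cell clone made with CRISPR/Cas9 at exon 2 of *Vcam1*, so that 1 clone stands for each edited group. Each condition was sequenced in 3 libraries, taken from different passages of the cells in monoculture. P values for 1 clone against ctrl or against the other clone therefore measure the spread between passages of 1 culture or clone. Those for both clones pooled also take in the difference between the clones.

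Complement is a cascade of plasma and membrane proteins that marks cells and microbes for clearance. The classical pathway starts with C1q and its proteases C1r and C1s, the lectin pathway with mannose-binding lectins or ficolins and the MASP proteases, and the alternative pathway with spontaneous turnover of C3. They meet at the C3 convertases, which cleave C3: one is built from C4 and C2, the other from C3b and factor B. Factor I, C4b-binding protein and the membrane protein CD55 limit the convertases, C1 inhibitor blocks the early proteases, and CD59 blocks the membrane attack complex. The liver makes most of the circulating components, and fibroblasts and epithelial cells make some of their own.

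Library totals lay between 53415907 and 125223073 estimated counts, and 3 counts, taken as the limit of detection, were worth between 0.0239 and 0.0554 CPM. Levels are in CPM, read counts relative to library size after scaling with TMM factors. Pairs of libraries of the same condition differed by a chi-square of between 35.8 and 275 per degree of freedom, so that none was a repeat of another. In both clones replicate 3 stood furthest from the others. Replicates 1 and 2 had 36.0 in KO1 and 35.8 in KO2 cells. The pairs with replicate 3 had 240 and 275 in KO1, and 166 and 113 in KO2 cells. *Vcam1* itself stood at 248, 221 and 329 CPM in ctrl libraries, at 98.8, 92.4 and 128 CPM in KO1 libraries and at 119, 99.4 and 83.0 CPM in KO2 libraries, with a pooled log2 fold change of -1.36 (adjusted p = 2.10e-04 by edgeR). The sum of 9 biliary and epithelial markers was 11503 to 12243 CPM in ctrl libraries, 244 to 452 CPM in KO1 libraries and 176 to 286 CPM in KO2 libraries, with *Krt19* and *Epcam*, both defining markers, at 16 counts or fewer in every clone library. Among 8 fibroblast markers the sum was 427 to 828 CPM, 10463 to 13043 CPM and 6211 to 7521 CPM in the same order. Most of the clone sums was *Col1a1*, with means of 99.4, 8530 and 4735 CPM, whereas *Dcn* had 74.6, 4.34 and 92.0 CPM. Of the 7 tested, 5 were higher and 1 lower in KO1 cells, where 59.9% of all tested genes were called. In KO2 cells 6 were higher and 0 lower, where 51.4% of all tested genes were called. *Krt19* and *Epcam*, which define the labelled tumor type, were thus at or near 0 in both clones, and the part of these differences in the complement values below was not tested. Of 8 haematopoietic markers, *Ptprc* had at most 6 counts in a clone library and at most 48 in a ctrl library, and the sum of the list lay between 7.01 and 20.8 CPM over all libraries. Of the 4 tested, *Csf1r* fell in both clones, while *Lyz2* rose in KO1 cells from a mean of 0.114 to 4.08 CPM. Of 6 hepatocyte markers the sum was 68.0 to 208 CPM in ctrl, 122 to 177 CPM in KO1 and 58.0 to 73.1 CPM in KO2 libraries. Most of the clone sums was *Fah*, which rose from a mean of 27.2 CPM to 151 and 65.7 CPM, whereas *Ttr* (79.3 CPM in ctrl cells) and *Serpina1a* (8.11) fell in both clones. The mean of *Alb* was also lower there, at 2.15 and 0.323 CPM against 10.2 CPM. That ctrl mean came mostly from 1 library, since *Alb* lay between 2.68 and 23.9 CPM with a median of 3.90 CPM. KO1 libraries reached 2.84 CPM and overlapped those of ctrl. In bulk RNA, fewer cells of a type and less RNA per cell cannot be told apart.

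*C3*, the protein on which all pathways converge, rose in both clones, and *Cfb*, the protease that pairs with it in the alternative pathway, fell in both. In ctrl replicates 1 to 3 *C3* stood at 365, 195 and 279 CPM. In KO1 cells the values were 1058, 743 and 2231 CPM, and in KO2 cells 4636, 4617 and 2259 CPM. Every clone library lay above every ctrl library, and every KO2 library above every KO1 library, although the highest of KO1 (2231 CPM) came close to the lowest of KO2 (2259 CPM). The log2 fold change was 2.26 in KO1 cells (standard error 0.45, adjusted p = 0.0018) and 3.78 in KO2 cells (standard error 0.48, adjusted p = 1.42e-04), both from the quasi-likelihood F test of edgeR and adjusted over all tested genes by the Benjamini-Hochberg procedure, as are all adjusted p values below. *C3* took 46.2% to 62.4% of the counts of the 9 genes in ctrl libraries, 61.4% to 81.9% in KO1 libraries and 90.1% to 92.7% in KO2 libraries.

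*Cfb* had 102, 113 and 153 CPM in ctrl libraries, 0.734, 0.355 and 2.17 CPM in KO1 libraries and 11.5, 10.9 and 5.19 CPM in KO2 libraries. No libraries of any pair of conditions overlapped. The fall was 116-fold in KO1 cells (log2 fold change -6.86, standard error 0.66, adjusted p = 1.92e-05) and 13.4-fold in KO2 cells (log2 fold change -3.74, standard error 0.56, adjusted p = 3.94e-04). Without KO1 replicate 3, which held most of the remaining *Cfb*, the log2 fold change in that clone was -7.86. *Cfb* lies 86 bp from *C2*, and a read-through transcript of both genes, *Gm20547*, shares 75.5% of the 31-base words of *Cfb* transcripts. That read-through had at most 48 counts in any library, against 6130 to 12824 counts of *Cfb* in ctrl libraries.

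*C4b*, which encodes the C4 protein of the classical and lectin pathways, varied most within the ctrl cells. Its values were 1.05, 0.424 and 5.80 CPM in ctrl libraries, 11.9, 10.0 and 38.2 CPM in KO1 libraries and 6.60, 6.43 and 1.54 CPM in KO2 libraries. KO1 libraries lay above all others, whereas KO2 and ctrl libraries overlapped. In KO1 cells the log2 fold change was 3.04 (standard error 0.97, adjusted p = 0.021), and this call was lost without ctrl replicate 1 (adjusted p = 0.074), ctrl replicate 2 (0.056) or KO1 replicate 3 (0.069). In KO2 cells the log2 fold change was 0.99 (95% interval -1.06 to 3.05, adjusted p = 0.39), and without ctrl replicate 3, the highest of the ctrl libraries, it was 2.66 (adjusted p = 0.032). In KO1 cells the log2 fold change was 4.70 without that library and 2.18 without KO1 replicate 3, where the pooled value was 1.59 and the difference between the clones 1.18. *C4b* shares 48.3% of its 31-base words with *C4a*, a near-identical copy 65.2 kb away, and *C4a* took between 16.2% and 55.8% of the counts of the pair in ctrl libraries. With both copies summed, the log2 fold change was 2.78 in KO1 cells (adjusted p = 0.012) and 0.92 in KO2 cells (adjusted p = 0.33).

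**Figure D1:**
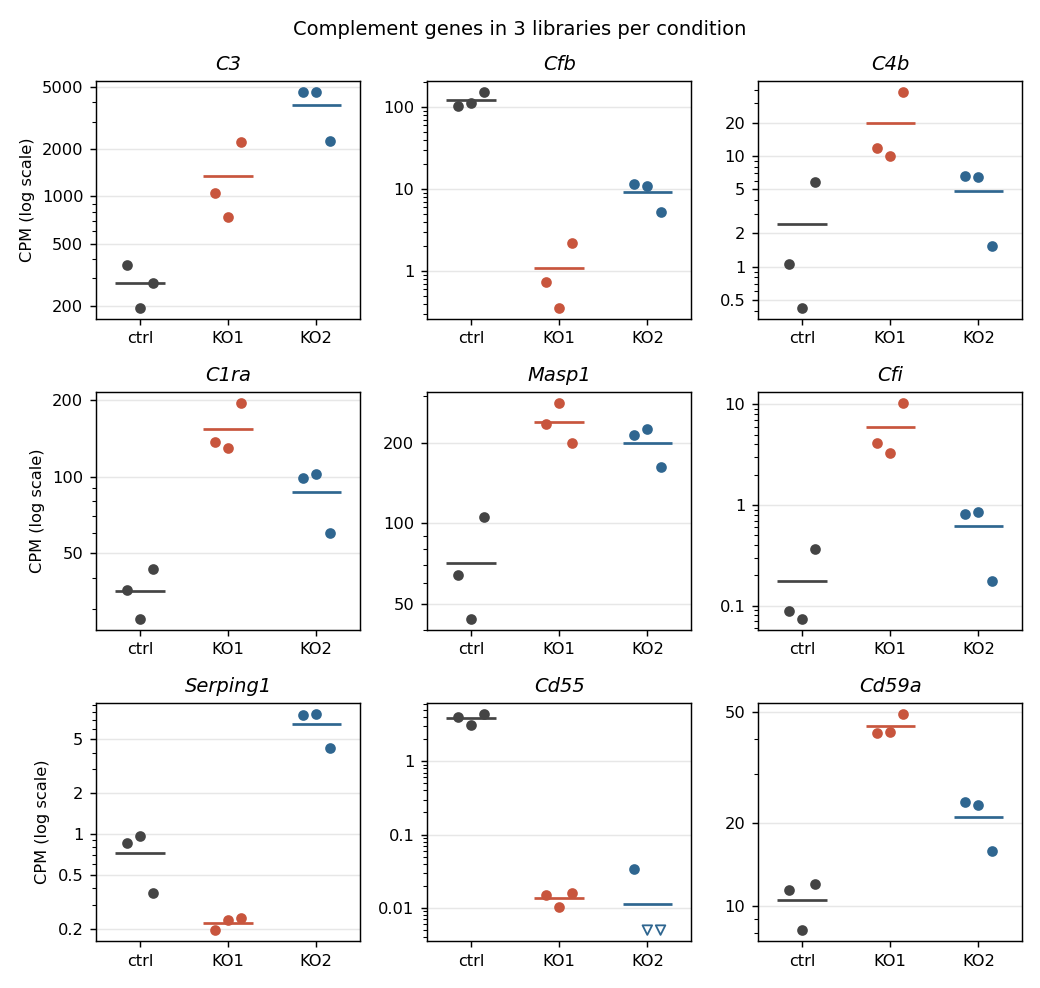
Level of each of the 9 complement genes in CPM, on a log axis whose range differs between panels, for 3 libraries of ctrl (grey), KO1 (red) and KO2 (blue) cells. Points are libraries, in the order of replicates 1 to 3, bars are means, and open triangles mark libraries with 0 counts. *C3* rises from at most 365 CPM in ctrl to at least 743 CPM in the clones, *Cfb* and *Cd55* fall in both, and *Serping1* moves in opposite directions.

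The proteases that start the cascade rose together. *C1ra*, a C1r gene, had 35.7, 27.5 and 43.4 CPM in ctrl libraries, 136, 129 and 195 CPM in KO1 libraries and 98.3, 102 and 60.1 CPM in KO2 libraries. *Masp1*, the gene of the lectin-pathway protease MASP-1, had 64.2, 43.9 and 105 CPM, 235, 282 and 199 CPM, and 214, 226 and 162 CPM. For both genes every clone library was above every ctrl library. *C1ra* rose 4.32-fold in KO1 cells (log2 fold change 2.11, standard error 0.26, adjusted p = 8.99e-05) and 2.44-fold in KO2 cells (log2 fold change 1.29, standard error 0.25, adjusted p = 0.0020). *Masp1* rose 3.36-fold in KO1 cells (log2 fold change 1.75, standard error 0.30, adjusted p = 7.05e-04) and 2.82-fold in KO2 cells (log2 fold change 1.49, standard error 0.29, adjusted p = 0.0021). *C1ra* shares 56.9% of its 31-base words with *C1rb*, 46.9 kb away, which took at most 2.10% of the counts of the pair in any library.

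Of the soluble regulators, *Cfi* rose in KO1 cells and *Serping1* went in opposite directions in the clones. *Cfi* encodes factor I, the protease that inactivates C3b and C4b. It had 0.088, 0.074 and 0.367 CPM in ctrl libraries, from 4 to 29 counts, and 4.13, 3.25 and 10.3 CPM in KO1 libraries. In KO2 libraries it had 0.822, 0.848 and 0.177 CPM, and the third of these lay within the range of ctrl libraries. The log2 fold change was 5.05 in KO1 cells (standard error 0.83, adjusted p = 5.83e-04) and 1.79 in KO2 cells (95% interval 0.03 to 3.56, adjusted p = 0.084). Without KO2 replicate 3 the latter was 2.21 (adjusted p = 0.036), and without ctrl replicate 3 it was 2.87 (adjusted p = 0.025). Without ctrl replicate 3 the log2 fold change in KO1 cells was 6.12, and without KO1 replicate 3 it was 4.38. As *Cfi* entered the test through its clone libraries, a rise against ctrl was favoured in advance. The tests against ctrl therefore add little to the counts.

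*Serping1* encodes C1 inhibitor, which blocks C1r, C1s and the MASP proteases. Its level was 0.853, 0.960 and 0.367 CPM in ctrl libraries, 0.195, 0.230 and 0.239 CPM in KO1 libraries and 7.62, 7.69 and 4.32 CPM in KO2 libraries. All KO1 libraries were below and all KO2 libraries above the ctrl libraries. The gene fell 3.25-fold in KO1 cells (log2 fold change -1.70, standard error 0.41, adjusted p = 0.0053, from 13 to 22 counts per library) and rose 9.02-fold in KO2 cells (log2 fold change 3.17, standard error 0.39, adjusted p = 1.20e-04).

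The membrane regulators diverged. *Cd55*, decay-accelerating factor, which takes C3 convertases apart, was nearly lost in both clones. It had 4.03, 3.08 and 4.38 CPM in ctrl libraries, from 167 to 506 counts, against 1 count in each KO1 library and 2, 0 and 0 counts in KO2 libraries. Summed over libraries, its level in ctrl cells was 332 times that in the clones (95% counting interval 142 to 1026), 296 times that in KO1 cells (101 to 1436) and 387 times that in KO2 cells (107 to 3202). The counts behind the clone values lie at or under the limit of detection, and these exact intervals cover counting error only. The fall passed in both clones (adjusted p = 4.56e-06 in KO1 and 6.26e-06 in KO2 cells). As *Cd55* entered the test through its ctrl libraries alone, the test could hardly give another direction, and it adds little to the counts. *Cd59a*, which blocks the membrane attack complex, rose instead. Its 11.4, 8.19 and 11.99 CPM in ctrl libraries compared with 42.0, 42.4 and 49.3 CPM in KO1 libraries and 23.7, 23.2 and 15.8 CPM in KO2 libraries, with no overlap between any of the 3 conditions. *Cd59a* rose 4.23-fold in KO1 cells (log2 fold change 2.08, standard error 0.20, adjusted p = 2.07e-05) and 1.98-fold in KO2 cells (log2 fold change 0.99, standard error 0.20, adjusted p = 0.0022). The copies *Cd55b* and *Cd59b* held at most 0.197% and 1.11% of the counts of their pairs.

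The sequences before the starts of *C3*, *Cd55* and *Cd59a* are shown. The set of RefSeq promoters used here (GRCm38.p6) held 4 of the 9 genes, these 3 and *C1ra*. All 4 changed in the same direction in both clones, *C3*, *Cd59a* and *C1ra* upward and *Cd55* downward. The sequence of *C1ra*, which held none of the motifs below, is not printed. Each sequence below is the 250 bases before the transcription start, 5′ to 3′ on the strand of the gene, at chr17:57228137-57228386 on the minus strand for *C3*, chr1:130462745-130462994 on the minus strand for *Cd55* and chr2:104095551-104095800 on the plus strand for *Cd59a*. Capitals mark matches to the letters of binding motifs, searched on both strands: GGGA, any 4 bases and CC for NF-kB, TTGCNNAA for C/EBP, TTCNNNGAA for STAT, and GAAA, any 2 bases and GAAA for IRF factors, with TATAAA searched on the strand of the gene only.
C3: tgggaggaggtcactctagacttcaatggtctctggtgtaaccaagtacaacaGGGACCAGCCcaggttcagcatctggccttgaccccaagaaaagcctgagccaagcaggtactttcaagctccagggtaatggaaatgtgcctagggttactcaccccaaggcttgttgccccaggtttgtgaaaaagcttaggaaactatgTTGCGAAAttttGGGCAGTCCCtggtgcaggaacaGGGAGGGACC
Cd55: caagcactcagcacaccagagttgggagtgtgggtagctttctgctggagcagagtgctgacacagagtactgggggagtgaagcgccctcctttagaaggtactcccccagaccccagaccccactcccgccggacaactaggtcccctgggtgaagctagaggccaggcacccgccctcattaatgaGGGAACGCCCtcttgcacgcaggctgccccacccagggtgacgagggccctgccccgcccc
Cd59a: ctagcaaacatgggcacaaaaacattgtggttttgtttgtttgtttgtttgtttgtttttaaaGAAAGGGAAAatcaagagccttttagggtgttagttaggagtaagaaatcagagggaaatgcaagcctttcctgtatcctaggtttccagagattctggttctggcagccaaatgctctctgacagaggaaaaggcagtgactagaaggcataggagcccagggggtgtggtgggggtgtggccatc
The *C3* window held 3 NF-kB matches, at -197 to -188, -33 to -24 and -10 to -1 from the start, and 1 C/EBP match at -45 to -38, with no overlap between motifs. Of 32851 windows of that length in the table, 17.6% held an NF-kB match, 0.356% held 3 or more, and 9.56% held a C/EBP match. The *Cd55* window had 1 NF-kB match (-61 to -52) and a GC content of 64.0%, against a median of 52.4% over all windows. In the *Cd59a* window, with 44.8% GC, the match was to the IRF motif (-187 to -178), which 2.98% of windows hold. The *C1ra* window held none of these motifs. STAT and TATAAA matches, found in 7.02% and 7.59% of windows, were in none of the 4. A match is a string of letters and was not tested for binding.

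Counted together, 6 of the 9 genes were higher and 3 lower in KO1 cells, where 59.9% of all tested genes were called, 29.9% higher and 30.0% lower. The libraries of all 9 lay apart from those of ctrl cells, as did 66.0% of all genes. In KO2 cells 5 were higher and 2 lower, where 51.4% of all genes were called, 25.3% higher and 26.1% lower. Libraries of 7 lay apart from ctrl, against 62.1% of all genes. *Cd55*, which entered the test through its ctrl libraries alone, is among the lower genes in both clones. *Cfi*, which entered it through its clone libraries, is among the higher genes in KO1 cells and in the pooled comparison below. The median log2 fold change of the 9 genes was 2.08 in KO1 and 1.29 in KO2 cells, against 0.02 and 0.00 over all tested genes. The study pooled both clones, and in that comparison, with 6 libraries against 3, 5 genes were higher (*C1ra*, *Masp1*, *C3*, *Cfi* and *Cd59a*) and 2 were lower (*Cfb* and *Cd55*), where 43.0% of all genes were called, 21.7% higher and 21.2% lower. Libraries of 6 genes lay apart, against 44.2% of all genes. The pooled log2 fold changes of the higher genes ranged from 1.63 (*Masp1*, adjusted p = 0.0015) to 4.19 (*Cfi*, adjusted p = 0.031). Those of the lower genes were -4.58 for *Cfb* (adjusted p = 0.0034) and -8.13 for *Cd55* (adjusted p = 1.01e-05). The 2 genes without a call were *C4b* (2.36, 95% interval -0.10 to 4.81, adjusted p = 0.11) and *Serping1* (2.22, 95% interval -0.82 to 5.26, adjusted p = 0.21), the second of which combines a fall and a rise. The pooled call of *Cfi* was lost without ctrl replicate 1 (adjusted p = 0.11), ctrl replicate 2 (0.11) or KO1 replicate 1 (0.050006), and that of *C4b* was gained without ctrl replicate 3 (log2 fold change 4.05, adjusted p = 0.038). Without ctrl replicate 3 the pooled value of *Cfi* was 5.28.

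**Figure D2:**
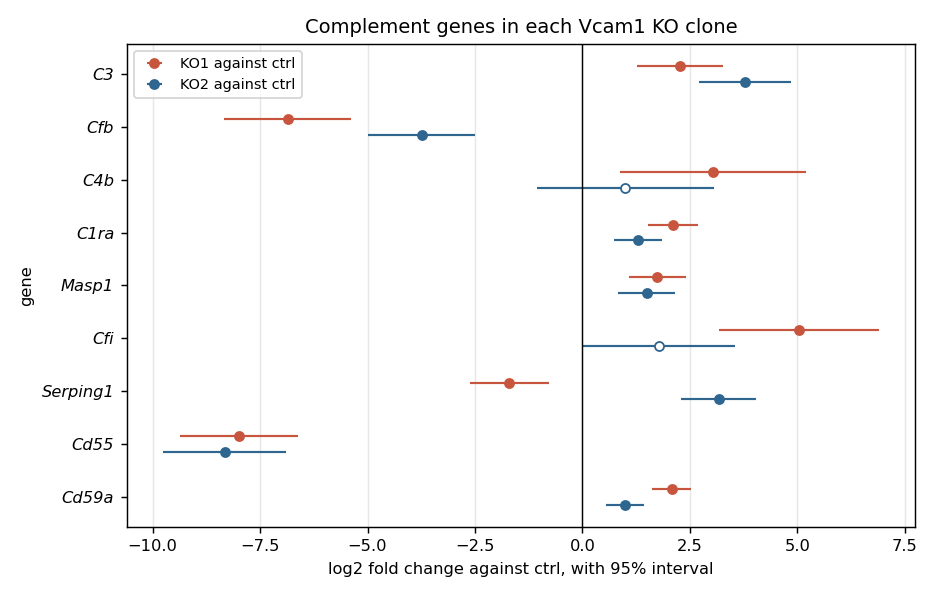
Log2 fold change of each complement gene in KO1 (red) and KO2 (blue) cells against ctrl cells, with 95% intervals from the fit. Filled points passed an adjusted p of 0.05, open points did not, and both clones were compared with the same 3 ctrl libraries. *C3*, *C1ra*, *Masp1* and *Cd59a* lie to the right of 0 and *Cfb* and *Cd55* to the left in both clones, whereas *Serping1* lies on opposite sides, at -1.70 and 3.17.

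The clones were then compared with each other, which asks whether their complement levels differed. Between KO1 and KO2 cells 6 of the 9 genes differed, 3 higher and 3 lower in KO1, where 38.7% of all genes were called, 20.2% higher and 18.5% lower. The libraries of 7 did not overlap between the clones, against 54.9% of all genes. *Serping1* differed most, at 29.3-fold lower in KO1 cells (log2 difference -4.88, standard error 0.43, adjusted p = 5.48e-05). *Cfb* (log2 difference -3.12, adjusted p = 0.0027) and *C3* (-1.51, adjusted p = 0.022) were also lower in KO1 cells. *Cfi* (3.25, adjusted p = 0.0078), *Cd59a* (1.09, adjusted p = 0.0024) and *C1ra* (0.82, adjusted p = 0.027) were higher there. The call of *C3* was lost without replicate 1 or 2 of either clone (adjusted p between 0.058 and 0.069), and that of *C1ra* without KO1 replicate 3 (0.084), KO2 replicate 1 (0.051) or KO2 replicate 3 (0.093). Without KO1 replicate 3 the difference of *Cfb* was -4.12 and that of *Cfi* 2.58. *Masp1* did not pass, with an interval of the log2 difference of -0.39 to 0.90. For *Cd55* the interval was -2.02 to 2.68, but with 3 counts in all KO1 and 2 in all KO2 libraries no difference could be read. The interval was -0.04 to 4.13 for *C4b*, which passed only without ctrl replicate 3 (log2 difference 2.03, adjusted p = 0.046).

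Per kilobase of the longest coding transcript, the order of levels changed with the condition. In ctrl cells *C3* (54.4 ± 16.5 CPM per kb, SD, n = 3) and *Cfb* (44.6 ± 9.75, SD, n = 3) were the highest, and their libraries overlapped. This nearness depends on the transcript length used, since with the median length of the transcripts *C3* stood at 505 and *Cfb* at 51.2 CPM per kb. They were followed by *Masp1* and *C1ra*, at 13.3 and 11.9 CPM per kb with overlapping libraries, then by *Cd59a* (5.83), *Cd55* (1.51), *C4b* (0.451), *Serping1* (0.411) and *Cfi* (0.0847). Of these last, *C4b* and *Serping1* overlapped. In KO1 cells *C3* stood alone at 262 ± 153 CPM per kb (SD, n = 3), and *C1ra* (51.5) and *Masp1* (44.7) overlapped behind it. *Cfb* had moved from the second place to the seventh, at 0.395 CPM per kb, where it overlapped *Serping1* (0.125). In KO2 cells *C3* stood at 747 ± 266 CPM per kb (SD, n = 3), against 37.5 for *Masp1*, the next gene. *Serping1* (3.70) and *Cfb* (3.34) overlapped there in the fifth and sixth places, and *Cd55* came last in both clones.

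The other complement genes were read from a list of 52, of which 28 were tested and 6 had no count in any library. Of the 28, 12 were higher and 11 lower in KO1 cells, and 10 were higher and 9 lower in KO2 cells, with median log2 fold changes of 0.79 and -0.20. Over all tested genes 29.9% were higher and 30.0% lower in KO1 cells, and 25.3% and 26.1% in KO2 cells. By role, 7 of 10 initiation genes were higher and 2 lower in KO1 cells, and 5 and 1 in KO2 cells. Of 9 regulators 3 were higher and 5 lower in KO1 cells, and 2 and 3 in KO2 cells. Of 6 receptors 1 was higher and 3 lower in KO1 cells, and 2 and 3 in KO2 cells. The C1q genes *C1qa*, *C1qb* and *C1qc*, whose product recognizes antibody complexes, had 0 counts in every library, which allows up to 0.0554 CPM in the smallest of them. *Mbl1*, *Fcnb* and *Vsig4* also had none. *C1s1*, the partner protease of *C1ra* 6.9 kb away, rose 1.90 in KO1 (standard error 0.31, adjusted p = 5.89e-04) and 1.74 in KO2 cells (standard error 0.31, adjusted p = 0.0012) on the log2 scale. *C1rl*, a C1r-like protease gene next to *C1ra*, rose in both clones as well (log2 fold changes 1.86 and 0.88). Likewise *Colec12*, a scavenger receptor of the collectin family, rose in both (2.48 and 1.44).

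*C2*, the protease that pairs with C4 in the other C3 convertase and the neighbour of *Cfb*, fell in both clones. It had 38.7, 25.5 and 70.6 CPM in ctrl libraries, between 0.240 and 0.335 CPM in KO1 libraries and between 0.133 and 0.368 CPM in KO2 libraries. The log2 fold change was -7.33 in KO1 (adjusted p = 2.10e-06) and -7.49 in KO2 cells (adjusted p = 2.63e-06), with 11826 counts over the ctrl libraries against 62 and 49 over those of KO1 and KO2. Thus both genes for the proteases of the C3 convertases were lower in both clones while *C3* was higher. *Cfp*, properdin, which stabilizes the alternative convertase, rose (1.48 and 2.04). *Cfd*, named after its values were seen, which cleaves factor B, had 0 counts in the ctrl libraries and at most 4 in the clones apart from 69 in KO1 replicate 3.

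Among soluble regulators, *C4bp* rose and *Clu* fell in both clones. *C4bp*, which acts on the C4 convertase, rose by 2.97 in KO1 and 2.96 in KO2 cells on the log2 scale (adjusted p = 0.0015 and 0.0019). *Clu*, clusterin, a chaperone that also restrains the membrane attack complex, fell from 1729 ± 599 CPM (SD, n = 3) to 192 ± 85.6 CPM (SD, n = 3) in KO1 and 319 ± 162 CPM (SD, n = 3) in KO2 cells. *Cpn1*, a carboxypeptidase subunit that inactivates the small complement peptides, fell in KO1 cells (log2 fold change -2.85, adjusted p = 0.0043) and had -1.65 in KO2 cells (adjusted p = 0.051). *Cr1l*, the rodent membrane regulator Crry, moved little: the log2 fold change was -0.55 in KO1 (adjusted p = 0.025) and 0.09 in KO2 cells (95% interval -0.31 to 0.50, adjusted p = 0.69). Its mean was 25.8 CPM per kb of the longest coding transcript in ctrl, 17.6 in KO1 and 27.5 in KO2 cells. All 3 were above the 1.51 CPM per kb of *Cd55* in ctrl cells.

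*Susd4* and *Csmd1*, which encode membrane proteins with complement control domains, differed between the clones. *Susd4* had 1.26, 1.13 and 1.53 CPM in ctrl libraries, 11.4, 11.2 and 13.6 CPM in KO1 libraries and 0.171, 0.198 and 0.133 CPM in KO2 libraries. It rose in KO1 (log2 fold change 3.21, adjusted p = 2.01e-06) and fell in KO2 cells (-2.95, adjusted p = 9.16e-06), the reverse of *Serping1*, and the difference between the clones was 6.16 (adjusted p = 9.95e-07). *Csmd1* fell in both clones, by 7.11 on the log2 scale in KO1 and by 1.74 in KO2 cells, and the difference between the clones was -5.37 (adjusted p = 2.20e-05). Of the 7 genes of the terminal pathway only 3 were tested, *Hc* (the mouse C5 gene), *C8g* and *C9*, and none of these had over 4.02 CPM in any library. *C6*, *C7* and *C8b*, also named after their values were seen, had at most 2 counts in any library.

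**Figure D3:**
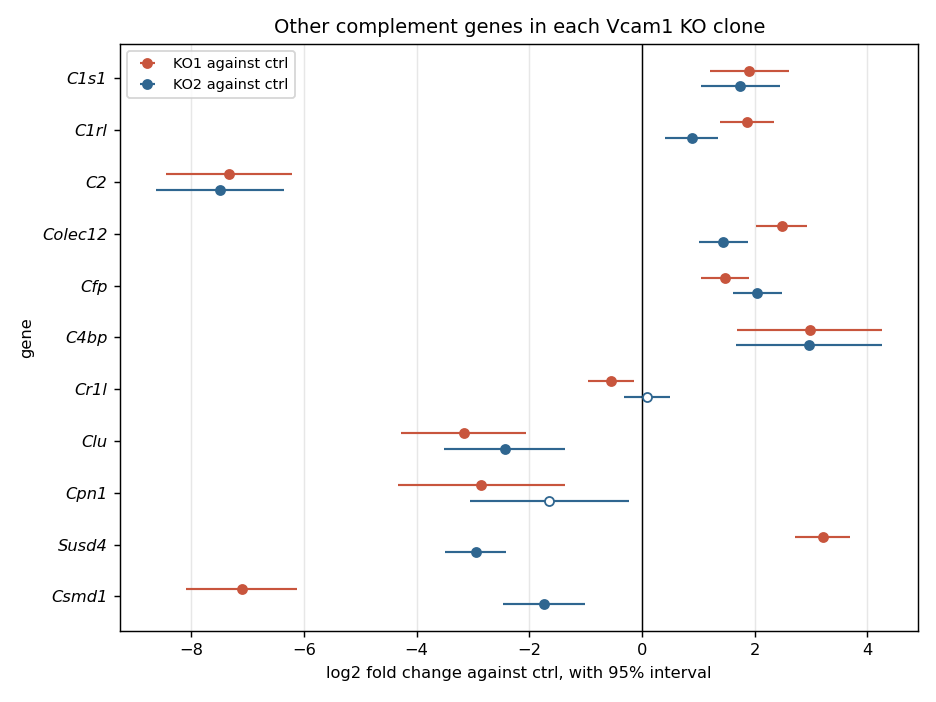
Log2 fold change of 11 other complement genes in KO1 (red) and KO2 (blue) cells against ctrl cells, with 95% intervals, drawn as for the 9 genes above. *C2*, *Clu* and *Csmd1* lie left of 0 and *C1s1*, *C1rl*, *Colec12*, *Cfp* and *C4bp* right of 0 in both clones, and *Susd4* lies at 3.21 in KO1 and -2.95 in KO2 cells.

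**Figure D4:**
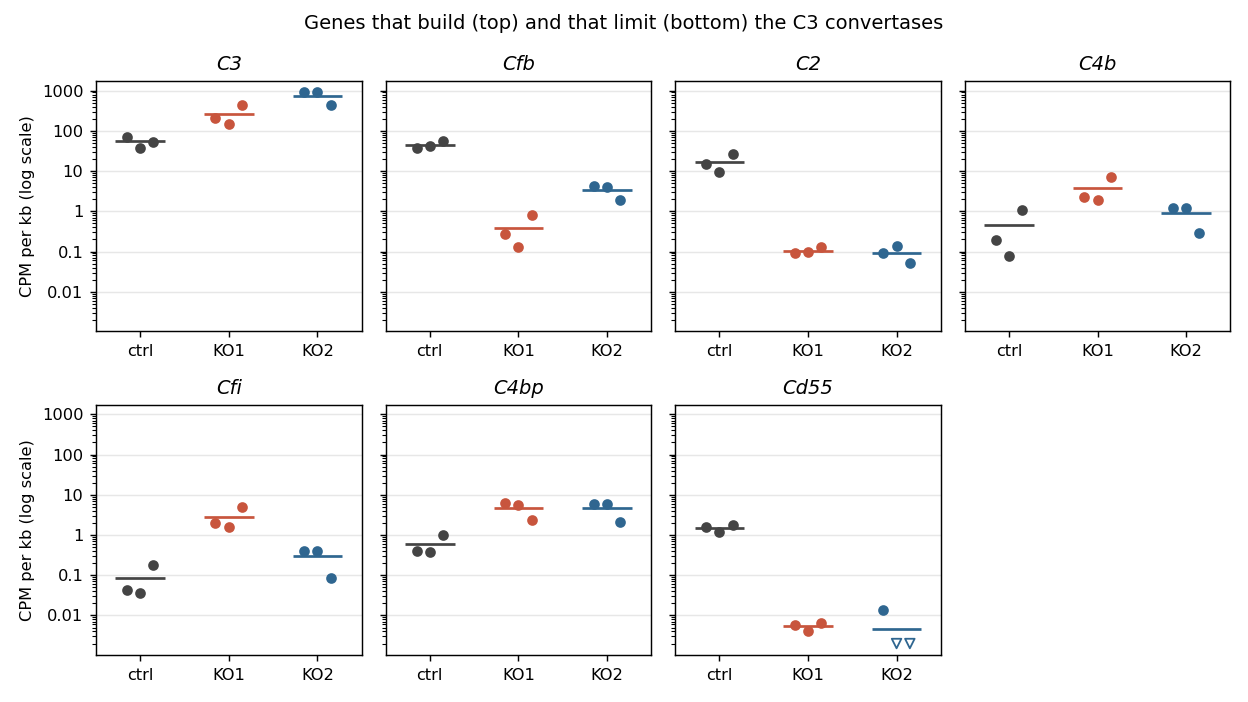
Levels per kilobase of the longest coding transcript, in CPM per kb on a shared log axis, of genes that build (top row) and limit (bottom row) the C3 convertases, in 3 libraries each of ctrl, KO1 and KO2 cells. Bars are means and open triangles are libraries with 0 counts. *C3* rises from ctrl to KO1 to KO2 cells, *Cfb* and *C2* fall in both clones, and *Cd55* is at or under 2 counts in the clones.

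The 9 genes lie on 6 chromosomes (GRCm38, GENCODE vM21). *C3* (57203970 to 57228136), *C4b* (34728380 to 34743882) and *Cfb* (34856374 to 34862518) are on the minus strand of chromosome 17. *C4b* and *Cfb* stand 112.5 kb apart in the major histocompatibility region, where in KO1 cells *C4b* rose and *Cfb* fell. *Serping1* (84765387 to 84775444, minus strand) and *Cd59a* (104095801 to 104115354, plus strand) share chromosome 2. The others are *C1ra* on chromosome 6 (124512405 to 124523443, plus strand), *Masp1* on 16 (23449417 to 23520815, minus strand), *Cfi* on 3 (129835884 to 129875332, plus strand) and *Cd55* on 1 (130439027 to 130462744, minus strand). *C3*, *Cfi* and *Serping1* shared no 31-base word with the transcripts of another gene.

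Within a condition the levels often ran opposite to those of the proliferation gene *Mki67*, a relation looked for after the values were seen. How often other genes did so was not counted, so the counts below do not show a trait of these 9 genes. *Mki67* stood at 155, 179 and 114 CPM in ctrl libraries, 216, 239 and 27.7 CPM in KO1 libraries and 178, 180 and 332 CPM in KO2 libraries. In ctrl cells 7 of the 9 genes were highest in the library with the lowest *Mki67*, in KO1 cells 8 and in KO2 cells 5. The library with the highest *Mki67* was the lowest for 7, 6 and 8 genes. In KO1 cells both counts include *Cd55*, whose 1 count in each library leaves its order to library size alone. The first count of KO2 cells includes it at 2, 0 and 0 counts. There the library with the lowest *Mki67* (178 CPM) also lay close to the next (180 CPM). *C4b* was highest at the lowest *Mki67* and lowest at the highest in all 3 conditions, with a highest library 13.7, 3.80 and 4.29 times the lowest. The part of proliferation in the differences between conditions was not tested.

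Over the 9 libraries, which form 3 clusters by condition, the genes whose log2 CPM was most like each member among 10871 genes with a mean of at least 5 CPM had Pearson correlations of 0.978 to 0.998. They were *Fbxw4* and *Clcn7* for *C1ra*, *Lpin2* and *Atp11a* for *Masp1*, *Dtx4* and *Zmynd11* for *C3*, *Irgq* and *Bphl* for *C4b*, *Rundc3a* and *Wdtc1* for *Cfb*, *Pcca* and *Tmem260* for *Cfi*, *Nrp2* and *S1pr2* for *Serping1*, *Misp* and *Gstp3* for *Cd55*, and *Sumf1* and *Hibadh* for *Cd59a*. The points of such a correlation share their condition, and it is given as a description. Of 22 liver acute phase genes, the class to which *C3* and *Cfb* belong in the liver, 17 were tested. In KO1 cells 4 of them were higher and 11 lower, and in KO2 cells 3 were higher and 7 lower. Among 20 genes for factors and receptors known to act on complement promoters, 11 were higher and 4 lower in KO1, and 10 higher and 3 lower in KO2 cells. These counts stand beside 59.9% of all tested genes called in KO1 and 51.4% in KO2 cells.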

How the data were processed

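The authors prepared stranded mRNA libraries, sequenced them with paired-end reads, and pseudoaligned these with kallisto 0.46.1 to mouse transcripts (mm10). The deposited table gives estimated counts per gene symbol, as whole numbers without normalization. The step that summed transcripts to symbols is not given in the sources used here. 0 columns of values were left out.

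Libraries were grouped by their titles and numbered in accession order. In R 4.3.3, edgeR 4.0.16 gave the TMM factors and the filter on low counts (filterByExpr). The 17672 genes left entered its quasi-likelihood F test, and p values were adjusted over all of them by the Benjamini-Hochberg procedure, with a threshold of 0.05. Each clone was compared with ctrl and with the other clone in a fit with 3 groups, and both clones pooled with ctrl in a fit with 2. The standard error is the absolute log2 fold change over the square root of F, and 95% intervals follow from it. Members, lists and tests were chosen with earlier results of these data known. The wider list was named by a rule: the first 12 genes in list order that were called in any comparison and had a mean of at least 5 CPM in a condition. One of them, and some alleles of the mouse model, are not reported here. Log2 levels used a prior count of 2. The 31-base words are those of GENCODE vM21 transcripts on the same strand.

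Depth of 53415907 counts or more leaves the spread between the 3 libraries of a condition as the main error. In the pooled comparison the difference between the clones adds to it. Alternatives were DESeq2 1.42.0, limma-voom (limma 3.58.1, the test of the study), other scalings and filters, summed copies, fewer libraries and fewer conditions. The fit was tested on simulated data in which 200 genes changed 2-fold, by the same amount in both clones. Of these, 87 were called in each clone and 128 with the clones pooled, all in the right direction. A gene without a call may therefore still differ. Figures used matplotlib 3.10.9.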

Additional observations from a re-analysis of the deposited data

Results flagged for a closer look

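The effects of the 2 clones against the same ctrl libraries differed at 6 of the 9 genes by the test of the difference itself (edgeR quasi-likelihood F test, adjusted p under 0.05), a call made for 38.7% of all tested genes. On the log2 scale, KO1 minus KO2, the differences were -4.88 for *Serping1*, whose effects had opposite signs, -3.12 for *Cfb*, -1.51 for *C3*, 0.82 for *C1ra*, 1.09 for *Cd59a* and 3.25 for *Cfi*. *Serping1* and *Cfb* passed in every alternative run, as did *Cfi* and *Cd59a*, while *C3* and *C1ra* each lost the call in some fits with 1 library fewer. Since each condition had 3 libraries, no search for single outlying libraries was made.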

How the results depend on the processing

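The counts of members called, higher and lower, and of all genes called in each comparison stayed within 1.5 times their values in all 204 alternatives. Of 36 results, 9 genes in 4 comparisons, 27 kept direction and side of the threshold throughout, over 16 or 17 alternatives each. Of the 24 changes in the other 9, 20 came from leaving out 1 library, and those are given beside the results. The pooled call of *Cfi* was lost with limma-voom (log2 fold change 3.54, adjusted p = 0.089), that of *C4b* was gained with DESeq2 (2.30, adjusted p = 0.027), and *Cfi* in KO2 cells passed with DESeq2 (1.75, adjusted p = 0.034) and with no filter on low counts (1.75, adjusted p = 0.048). The cause was not tested. With limma-voom the pooled log2 fold change was -5.58 for *Cfb* and 0.77 for *Serping1*, and as the average of both clones -5.30, 0.74 and, for *Cfi*, 3.42. The difference of *Cd55* between the clones, not called, ranged from -0.24 to 3.19 with 1 library left out and changed sign without KO2 replicate 2 (-0.24) or replicate 3 (-0.24), both at 0 counts. In KO2 cells alone its fitted log2 fold change was -11.24 without KO2 replicate 1, which held both counts of that clone. With median in place of longest transcript lengths, 7 of 27 levels per kilobase moved by over 1 SD, among them *C3* in ctrl cells at 505 CPM per kb, and 6 of 27 places in the order changed. No paired analysis was possible because the labels give no replicate number that conditions share. Depth limits *Cd55* in the clones.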
